A study of Homo sapiens with 6 samples.

Results

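The chemokine ligands CXCL14, CXCL12 and CCL11 and the chemokine receptor CXCR4 were followed in CCD-18Co cells, an established line of human colon fibroblasts that the submitters also call myofibroblasts. Of the 54613 probe sets on the arrays, 6 could be named as these 4 genes, which are among 1645 genes that could be named. A probe set (a group of short array probes read as 1 signal) could be named only if the authors' test of SHH against untreated cells gave it a p at or under 0.05, so the members were chosen by measured values of the very comparison described here. Their differences are therefore given as a description, without a test. Of the 6 probe sets, 2 belong to CXCL14, 2 to CXCL12, and 1 each to CCL11 and CXCR4. In the authors' deposited table the p-values that brought them in ran from 7.53e-05 for the brighter CXCL14 probe set to 0.0154 for CXCR4, which lay nearest to the limit, and their q-values from 0.392 to 0.947. Any probe sets of the same 4 genes with a p above 0.05 in the authors' test could not be named. They are not analysed here, and their direction is not known.

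The culture medium of both groups held bovine serum albumin at 0.1%. The treated group of 3 arrays received SHH, the secreted signal protein sonic hedgehog that starts the hedgehog pathway, at 1 ug/ml for 72 h. The untreated group, also of 3 arrays, received none according to the labels, while the deposited readme calls it vehicle, and its time in culture is not recorded. Each group comes from a single cell line, so the spread given here is that between replicates within 1 line. The titles number the replicates without saying whether they were separate cultures. The median signal per array lay between 105 and 111 in the untreated group and between 94.4 and 109 in the SHH group. The trimmed mean lay between 498.1 and 498.2 over all arrays. With 3 arrays a group, precision is limited by that number.

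Chemokines are small secreted proteins that bind heparan sulfate chains on cell surfaces and matrix and guide cells that carry the matching G protein-coupled receptor. CXCL12 is the ligand of CXCR4, and the pair is known for retaining and recruiting blood-forming cells, lymphocytes and tumour cells in stromal tissue. CCL11, or eotaxin, acts through CCR3 and is known for drawing eosinophils into the gut wall. CXCL14 is made by epithelia and by fibroblasts, and its signalling receptor is not settled.

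With SHH, CXCL14 and CXCR4 signals were higher and CXCL12 and CCL11 signals were lower. The brighter CXCL14 probe set went from 183 ± 59.6 to 2419 ± 40.3, the CXCR4 probe set from 29.8 ± 22.0 to 187 ± 7.79, the brighter CXCL12 probe set from 5176 ± 388 to 2460 ± 90.6, and the CCL11 probe set from 521 ± 32.7 to 147 ± 32.7 (mean ± SD, n = 3 arrays per group). In all 6 probe sets the 3 arrays of one group lay apart from the 3 of the other, 3 probe sets with SHH higher and 3 with SHH lower. Over all 54613 probe sets this held for 17.3%, of which 6.97% of all probe sets had SHH higher and 10.3% had SHH lower. Nothing is read from the members' count, because they were chosen from this contrast. In cell cultures measured as a whole, a change in the number of producing cells and a change in RNA per cell cannot be told apart.

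**Figure D1:**
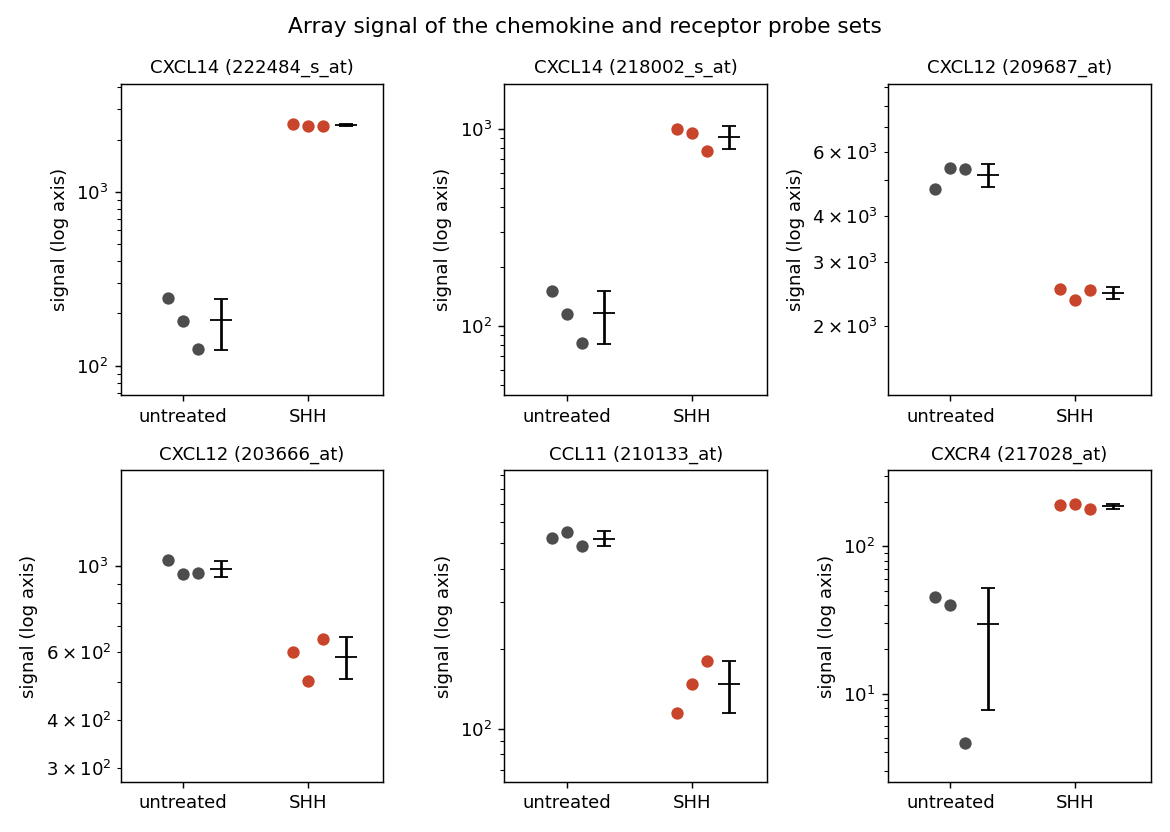
Signal of the 6 probe sets on a log axis, with 1 point per array (grey untreated, red SHH) and the mean ± SD of 3 arrays beside the points. The groups do not overlap in any panel, and the untreated CXCR4 arrays spread from 4.59 to 45.2.

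Among the ligands, CXCL14 had the difference of greatest size. On the brighter probe set, 222484_s_at, the untreated arrays read 244, 180 and 125 and the SHH arrays 2465, 2402 and 2390. The untreated readings lay around the middle of their arrays, between the percentiles 53.1 and 65.4 of all probe sets, and the SHH readings between 92.7 and 93.0. The lowest SHH array was 9.78-fold above the highest untreated array. On the log2(signal + 16) scale, on which all log2 differences here are given, the difference was 3.65 ± 0.23 (± is the moderated SE from limma, into which the variance of the other probe sets also enters). That is 12.6-fold, and it was the highest of the 54613 probe sets, the second highest without untreated replicate 3 or without SHH replicate 1, and the third highest with a pseudocount of 1.

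The dimmer CXCL14 probe set, 218002_s_at, read 151, 115 and 81.7 on the untreated arrays and 998, 958 and 771 on the SHH arrays. Its log2 difference of 2.84 ± 0.23, or 7.15-fold, was the third highest of all probe sets, in place 5 without untreated replicate 3 and in place 10 with a pseudocount of 1. It lay 0.82 below that of the brighter probe set. Both probe sets thus placed all SHH arrays above all untreated arrays, by at least 5.11-fold on the dimmer one. They also put the arrays of each group in the same order, with replicate 1 highest and replicate 3 lowest. The spread among the untreated arrays was wide. The coefficient of variation (SD as a share of the mean) was 32.5% on the brighter and 29.9% on the dimmer probe set, against 1.67% and 13.3% with SHH. Of the 1000 probe sets nearest in untreated brightness, 89.4% had a smaller untreated SD than the brighter CXCL14 probe set on the log2 scale. With SHH the same comparison gave 7.2%.

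The letters upstream of CXCL14 are shown because the GLI transcription factors at the end of the hedgehog pathway bind a known DNA motif. The 250 bases before the start of CXCL14 lie at chr5:135578992-135579241 of GRCh38.p14, on the minus strand, and are printed 5′ to 3′ from RefSeq. Those of CXCR4 lie at chr2:136118150-136118399, also on the minus strand. CXCR4 has 3 starts in the table, and the most upstream is used.
CXCL14: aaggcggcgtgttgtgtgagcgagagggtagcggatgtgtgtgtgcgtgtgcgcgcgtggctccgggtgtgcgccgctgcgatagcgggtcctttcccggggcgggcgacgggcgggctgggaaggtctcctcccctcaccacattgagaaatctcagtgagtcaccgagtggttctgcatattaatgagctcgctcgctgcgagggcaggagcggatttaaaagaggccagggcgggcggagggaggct
CXCR4: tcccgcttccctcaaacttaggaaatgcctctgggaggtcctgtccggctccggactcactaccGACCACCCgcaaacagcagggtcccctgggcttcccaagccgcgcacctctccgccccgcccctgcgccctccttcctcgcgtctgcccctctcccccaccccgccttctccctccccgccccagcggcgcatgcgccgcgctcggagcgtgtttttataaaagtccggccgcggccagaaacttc
Capitals mark the letters GACCACCC in CXCR4, from 186 to 179 bases before the start. They are the GLI motif GACCACCCA without its last base, and both were searched on both strands, so that every match of the longer is also one of the shorter. The longer motif was found in neither sequence, nor in the 250 bases upstream of CXCL12, and occurs in 0.199% of 35116 such windows in the RefSeq table. The shorter occurs in 0.849% of them, and it was found upstream of CXCR4 only, not of CXCL14 or CXCL12. CCL11 was not searched. A match is a description of letters and not a binding site, and the absence of one concerns these windows alone.

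The signal of CXCL12 was lower with SHH on both of its named probe sets. On probe set 209687_at the untreated arrays read 4728, 5413 and 5387 and the SHH arrays 2520, 2356 and 2504. The lowest untreated array was 1.88-fold above the highest SHH array. The log2 difference was -1.07 ± 0.11, a 2.09-fold lower signal, and 508 of the 54613 probe sets lay lower. This place, 509 from the lowest, was not stable. It was 30 when the pseudocount was 64 and 2686 when it was 1. Without 1 array it was 1028 (untreated replicate 2), 884 (untreated replicate 3), 921 (SHH replicate 1) or 988 (SHH replicate 2), and 542 and 692 without each of the others. The readings moved from between the percentiles 96.7 and 97.1 of the untreated arrays to between 92.6 and 93.2 of the SHH arrays.

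The dimmer CXCL12 probe set, 203666_at, read 1038, 952 and 959 untreated and 598, 504 and 646 with SHH. Its log2 difference of -0.74 ± 0.13 corresponds to a 1.68-fold lower signal, which is 0.32 nearer to 0 than that of the brighter probe set. The dimmer probe set was in place 2171 from the lowest, 313 with a pseudocount of 64 and 5250 with 1. Unlike those of CXCL14, the 2 probe sets did not order the arrays of a group alike. Untreated replicate 1 was the lowest on the brighter and the highest on the dimmer probe set. SHH replicate 2 was the lowest of its group on both. The coefficients of variation lay between 3.68% and 12.4% in the 2 groups of the 2 probe sets, below those of CXCL14 in untreated cells.

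CCL11 had 1 named probe set, 210133_at, which read 521, 553 and 488 on the untreated arrays and 115, 147 and 180 on the SHH arrays. The untreated arrays were close together, with a coefficient of variation of 6.28%, and the SHH arrays spread more widely, at 22.2%. The lowest untreated array stood 2.71-fold above the highest SHH array. The log2 difference was -1.73 ± 0.18, a 3.32-fold lower signal, and 19 of the 54613 probe sets lay lower. With SHH the readings lay between the percentiles 51.2 and 61.9 of their arrays, close to the middle, from between 75.4 and 76.9 without it. The place of CCL11 among the lowest depended on the pseudocount, from the place 4 with a pseudocount of 64 to the place 418 with a pseudocount of 1. It also depended on single arrays, being 95 without SHH replicate 1 and 52 without untreated replicate 2, 33 without untreated replicate 1, 31 without SHH replicate 2, and 19 and 26 without each of the others.

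CXCR4, the receptor of CXCL12, was dim in untreated cells. Probe set 217028_at read 45.2, 39.6 and 4.59 on the untreated arrays, which is below the median of each array and between the percentiles 3.08 and 30.3. The SHH arrays read 189, 193 and 178, between the percentiles 61.4 and 62.6. The groups did not overlap, the lowest SHH array being 3.94-fold above the highest untreated array. The log2 difference was 2.30 ± 0.43, with the largest SE of the members, and 6 probe sets lay higher. Over the other settings its place from the top lay between 6 and 32, the last without untreated replicate 3. No detection calls were used, so whether the untreated signal lay above background is not known, and the size of the difference depends on how low signals are treated. It was 4.91-fold with the pseudocount of 16, 8.57-fold with 1 and 2.73-fold with 64. In the authors' deposited table, which uses no pseudocount, the log2 difference was 3.21 with the sign turned to SHH minus untreated. Untreated replicate 3 was the low one, and without it the difference was 1.80, or 3.47-fold. With SHH the 3 arrays were closer together than those of most probe sets of like brightness, of which 5% of 1000 had a smaller SD.

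CXCR4 is also a receptor of leukocytes, and 1 of 14 leukocyte markers had a name. This was CD14, a monocyte co-receptor, which read 208, 102 and 173 on the untreated and 273, 281 and 250 on the SHH arrays. Its log2 difference was 0.73 ± 0.25 (limma adjusted p = 0.437). In limma's fit with an intensity trend, in which the assumed variance follows brightness, its adjusted p was 0.235. All arrays come from cultures of the fibroblast line CCD-18Co, and a part of leukocytes in the CXCR4 signal was not tested. The pan-leukocyte gene PTPRC has no named probe set here. None of 8 endothelial markers had a name, and of 8 epithelial markers only the keratin KRT18 did, with signals between 5273 and 5883 untreated and between 3991 and 4507 with SHH (limma adjusted p = 0.324, and 0.0202 with the trend). Of 12 fibroblast markers 5 had a name, S100A4, COL3A1, FAP, DCN and PDGFRB. Each was read on a probe set named by its p in this contrast, and others of these genes could not be named. The COL3A1 and DCN probe sets had mean untreated signals of 395 and 460, against 4690 for that of PDGFRB. Their summed signal lay between 8269 and 9160 untreated and between 5694 and 6203 with SHH. All 5 were lower with SHH, with a median log2 difference of -0.50, and none passed limma's adjusted threshold (adjusted p = 0.215 for S100A4, the lowest of them). With the intensity trend 3 of the 5 passed, S100A4 at an adjusted p of 0.00495, PDGFRB at 0.0301 and FAP at 0.0398. These lower signals moved with those of CXCL12 and CCL11, and their part in them was not tested. Of 6 smooth muscle markers only 2 had a name, and nothing is known here of the others. MYH11 was higher at 0.94 ± 0.16 and CNN1 lower at -0.29 ± 0.13, neither passing without the trend (limma adjusted p = 0.131 and 0.538, and 0.00304 and 0.167 with the trend).

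**Figure D2:**
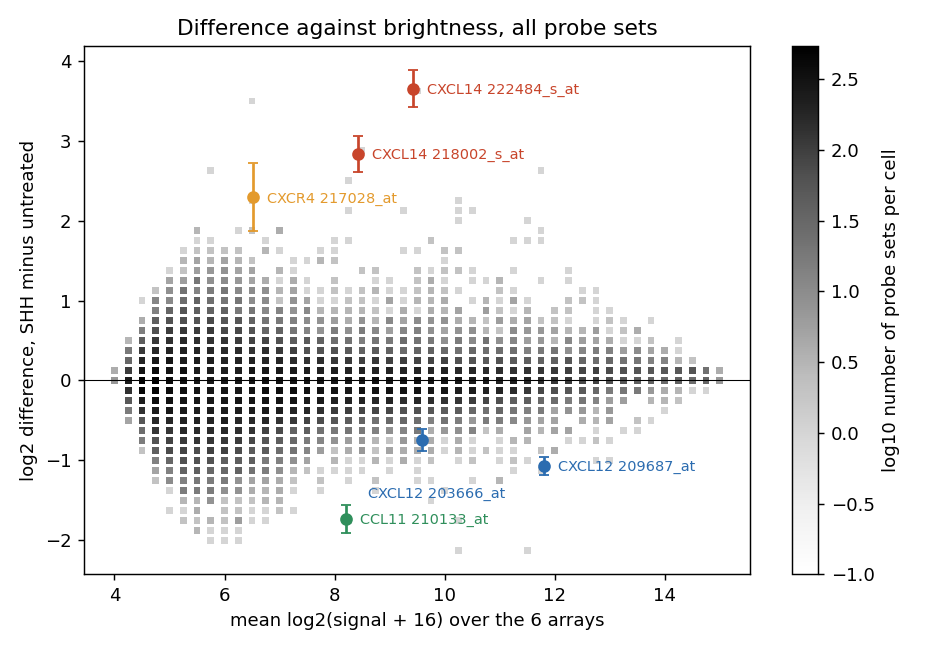
Log2 difference, SHH minus untreated, against mean log2(signal + 16) over the 6 arrays. Grey cells count all 54613 probe sets, and coloured points are the 6 probe sets with limma's SE. CXCL14 lies at the upper edge, CXCR4 above the wide cloud of dim probe sets, CCL11 below the cloud and CXCL12 among bright probe sets.

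The direction of each member held under every setting tried. Over 12 alternatives the brighter CXCL14 probe set ranged from 3.25 to 3.87, where the lowest value is the mean of both of its probe sets, and CXCL12 from -1.13 to -0.91. Over 11 alternatives CCL11 ranged from -1.87 to -1.48 and CXCR4 from 1.45 to 3.10. The range on the log2 scale was thus widest for CXCR4 and narrowest for CXCL12, whose difference was also the smallest. As a share of the reported difference, the values ran from 0.888 to 1.06 for CXCL14 and from 0.849 to 1.06 for CXCL12. These alternatives include each array left out as well as changes of processing.

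**Figure D3:**
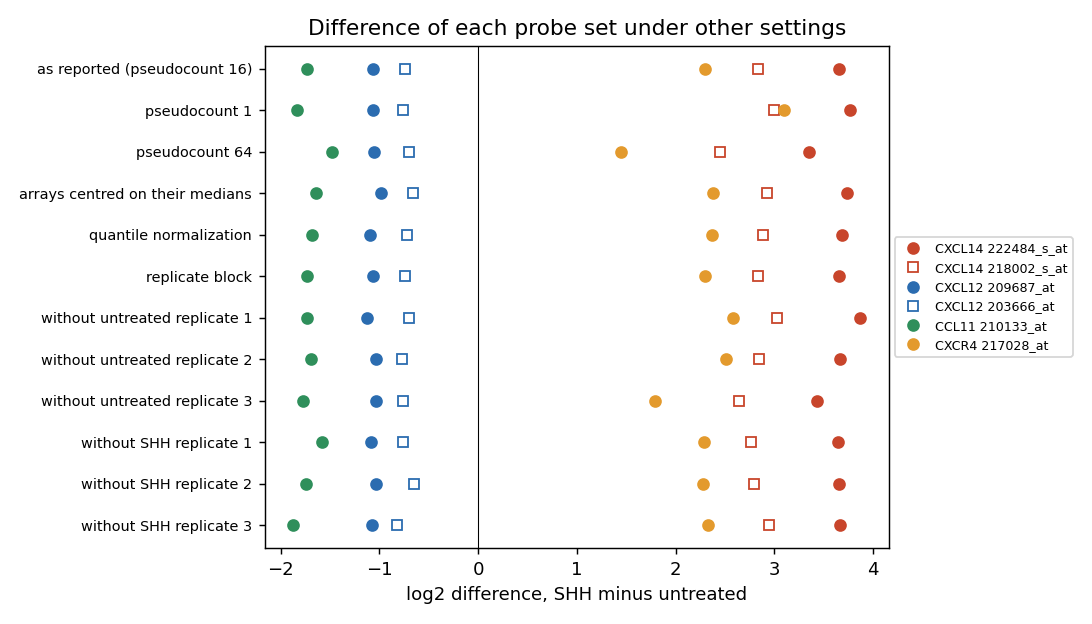
Log2 difference of each probe set (x axis) under each setting (rows). Filled circles mark the brighter or only named probe set of a gene and open squares the dimmer. CXCR4 moves between 1.45 and 3.10, and no probe set crosses 0.

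Profiles over the 6 arrays, each centred on its own mean, were compared with those of the 1641 other named genes, by the root mean square difference on the log2 scale. These genes were named by their p in the same contrast, so a shared step between the groups is built in. The neighbours were picked for likeness over these same 6 arrays, so a shared order of the arrays within a group is partly built in. Nearest to CXCL14 were GGT5, a gamma-glutamyltransferase that acts on leukotriene C4, at a distance of 0.34, then the hedgehog receptor PTCH1 at 0.55 and the forkhead factor FOXL1 at 0.68. None of the 1641 genes was closer than 0.34 to CXCL14 on this scale, which has the pseudocount of 16. GGT5 itself read 12.5, 9.13 and 9.73 on the untreated arrays and 197, 349 and 292 on the SHH arrays, with a log2 difference of 3.45 ± 0.22. Its untreated signal is so dim that this difference depends on the pseudocount, and its order against that of CXCL14 is not settled. FOXL1 was dim as well, at 7.05 ± 4.47 untreated and 128 ± 34.9 with SHH, so its difference and distance also depend on the pseudocount.

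CXCL12 had many near neighbours, 60 of the 1641 genes lying within 0.2. The distance is not scaled to the size of the step, so this count cannot be compared with those of the other members. The closest were BMPER and NOG, both extracellular regulators of BMP signalling, at 0.046 and 0.057, and PALMD, palmdelphin, at 0.055. Their log2 differences were -1.03, -1.07 and -1.03, against -1.07 for CXCL12. Nearest to CCL11 were the complement component C7 at 0.20, MDGA2, a membrane-anchored adhesion protein, at 0.20 and the matrix glycoprotein TNC at 0.21. The log2 differences of C7 and TNC, at -2.07 and -2.10, were of greater size than that of CCL11, and that of MDGA2 was -1.46. MDGA2 was dim, at 45.9 ± 3.92 untreated and 6.95 ± 5.71 with SHH, so its difference depends on the pseudocount and is not ranked against that of CCL11. For CXCR4 the nearest were MGC9564, kept under the name in the deposited annotation, at 0.37, the fructose kinase KHK at 0.40 and F2RL2, a protease-activated receptor, at 0.47. KHK read 60.8, 53.1 and 21.9 untreated, so that its untreated replicate 3 was the lowest, as for CXCR4, and 178, 138 and 193 with SHH.

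**Figure D4:**
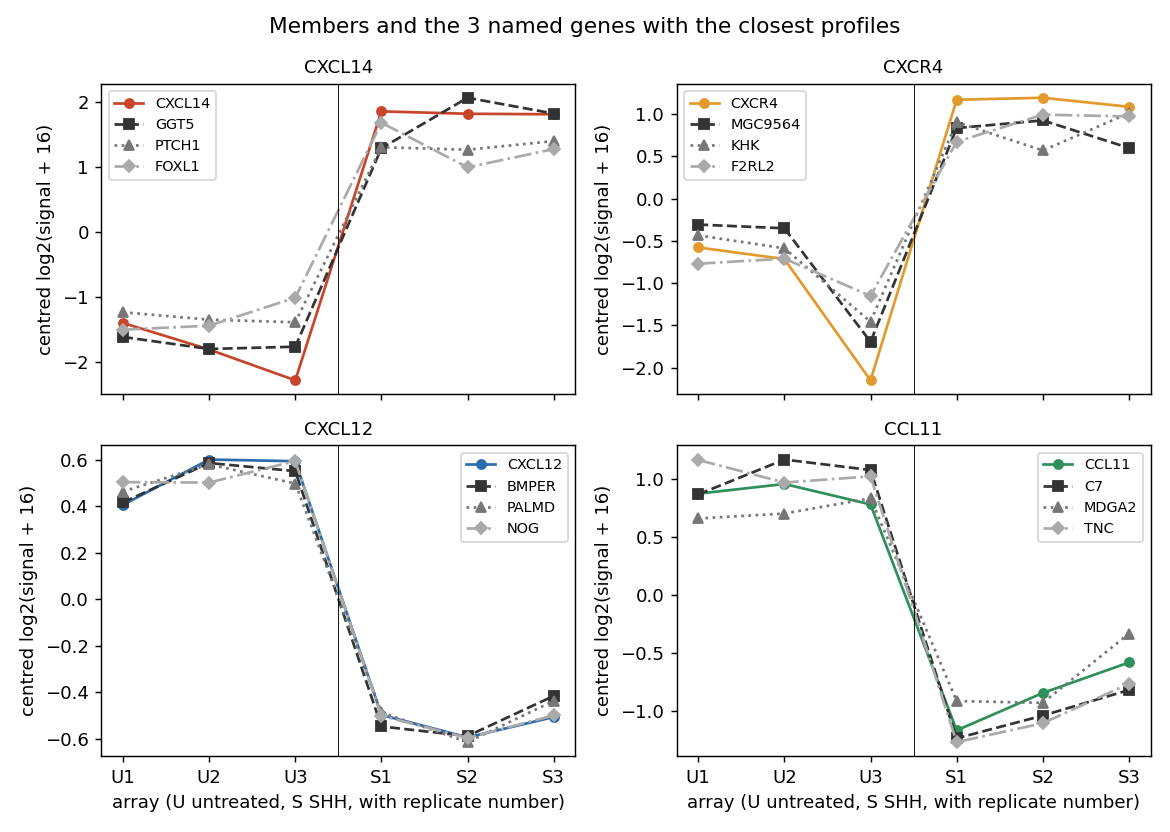
Log2(signal + 16) centred on each gene's own mean over the 6 arrays (U untreated, S SHH, with replicate number), for each member (coloured) and the 3 named genes with the closest profile (grey). The step is near 1 for CXCL12 and its neighbours and 3.65 for CXCL14. Untreated replicate 3 is lowest in all 4 genes of the CXCR4 panel, of which the 3 neighbours were picked for likeness to CXCR4.

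The rest of the chemokine system was read from 10 lists of 206 other genes, of which 37 had a named probe set. Of 64 other chemokine ligands and receptors, among them CCR3 and the atypical CXCL12 receptor ACKR3, none had a named probe set, so nothing is known here of their levels. Of the 37 named genes 15 were higher and 22 lower with SHH, with a median log2 difference of -0.32, against -0.05 over all 54613 probe sets and -0.24 over all named genes. By limma at an adjusted p under 0.05, none of the 37 passed by its brightest named probe set, although 2 dimmer probe sets of VEGFA did, while 34 had an unadjusted p under 0.05, as being named required of them by the authors' test. Limma with an intensity trend passed 20 of the 37, 10 higher and 10 lower, and 1014 of all probe sets, or 1.86%. These shares cannot be compared, because the 37 were admitted by their p in this contrast. Without the trend, over all probe sets limma passed 0.123%, of which 0.0824% were higher and 0.0403% lower. That is 45 higher and 22 lower, or 32 and 2 where arrays were centred on their medians.

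Among 20 proteases that trim chemokines and their inhibitors, 5 had a name. Signals of 2 of them were higher and of 3 lower with SHH. DPP4 is a dipeptidyl peptidase that removes amino-terminal residues of CXCL12 and CCL11 and so inactivates CXCL12. It read 2942, 2816 and 2678 untreated and 3940, 4466 and 4455 with SHH. Its groups did not overlap, and the log2 difference was 0.60 ± 0.11 (limma adjusted p = 0.174; with an intensity trend in the fit it was 0.00256). Its relative FAP, also a fibroblast marker, was at -0.47 ± 0.12 and the metalloprotease inhibitor TIMP3 at -0.44 ± 0.17 (limma adjusted p = 0.302 and 0.476, and 0.0398 and 0.128 with the trend). The urokinase PLAU had the highest value of the 37 genes, 1.05 ± 0.11 (limma adjusted p = 0.0607, and 1.18e-04 with the trend), while its receptor PLAUR lay at -0.39 ± 0.12 (0.372, and 0.0754 with the trend).

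Heparan sulfate proteoglycans and their enzymes, which hold chemokines at cell surfaces, were represented by 13 of 32 genes. Of these 6 were higher and 7 lower, and the median log2 difference was -0.26. The transferase EXTL2 was higher, at 0.64 ± 0.11, and the syndecan SDC4 and the glypican GPC6 were lower, at -0.55 ± 0.10 and -0.56 ± 0.14. Their limma adjusted p-values were 0.139, 0.177 and 0.281, and 0.00143, 0.00214 and 0.0201 with the trend. Other core proteins went both ways, SDC2 at 0.38 and GPC4 at 0.42 against SDC1 at -0.50. The sulfatases SULF1 and SULF2, which remove sulfate groups from these chains, lay at 0.26 and -0.26 (limma adjusted p = 0.538 and 0.516, and 0.161 and 0.0996 with the trend).

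Of 26 genes of receptor signalling and desensitisation, 2 had a name and both were lower. GNG2, a G protein gamma subunit, read 164, 91.5 and 153 untreated and 46.0, 35.3 and 45.2 with SHH. At -1.36 ± 0.23 it had the lowest value of the 37 genes (limma adjusted p = 0.136, and 0.0929 with the trend). RGS5, which limits G protein signals and also marks pericytes, lay at -0.66 ± 0.16 (limma adjusted p = 0.276, and 0.0524 with the trend).

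Genes around the inducers of CCL11 were mixed. Of the interleukin-4, interleukin-13 and eosinophil list 3 of 16 had a name. Periostin (POSTN), a matrix protein induced by interleukin-13, was at -0.98 ± 0.14 (limma adjusted p = 0.0893, and 7.89e-04 with the trend). The alarmin IL33 was at -0.56 ± 0.16 and the signalling inhibitor SOCS1 at 0.44 ± 0.12 (limma adjusted p = 0.356 and 0.345, and 0.0962 and 0.110 with the trend). The NF-kB and interleukin-1 list was represented by 7 of its 20 genes, with 3 higher and 4 lower. IL6 read 342, 376 and 347 untreated and 204, 202 and 169 with SHH, a log2 difference of -0.84 ± 0.12 (limma adjusted p = 0.103, and 0.0192 with the trend). The superoxide dismutase SOD2 lay at 0.92 ± 0.18 and the adhesion molecule VCAM1 at -0.57 ± 0.12 (limma adjusted p = 0.198 and 0.205, and 0.00849 and 0.00484 with the trend).

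Of 14 interferon response genes 3 had a name, the antiviral effectors IFIT1 and IFIT2 at -0.65 and -0.63 and the GTPase GBP2 at 0.56 (limma adjusted p = 0.228, 0.266 and 0.233, and 0.0107, 0.0538 and 0.0140 with the trend). Hypoxia is a known inducer of CXCR4, and 4 of 14 hypoxia regulators and targets had a name, with 2 in each direction. The growth factor VEGFA lay at 0.98 ± 0.11 and the glucose transporter SLC2A1 at 0.67 ± 0.13, while the hexokinase HK2 lay at -0.60 ± 0.12 (limma adjusted p = 0.0609, 0.196 and 0.188, and 1.21e-04, 0.00534 and 0.00449 with the trend). Of the 4 named probe sets of VEGFA, all higher, 2 passed limma's threshold without the trend. EGLN1, the oxygen sensor that marks hypoxia-inducible factors for decay, was at -0.29 ± 0.11 (adjusted p = 0.495, and 0.101 with the trend).

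**Figure D5:**
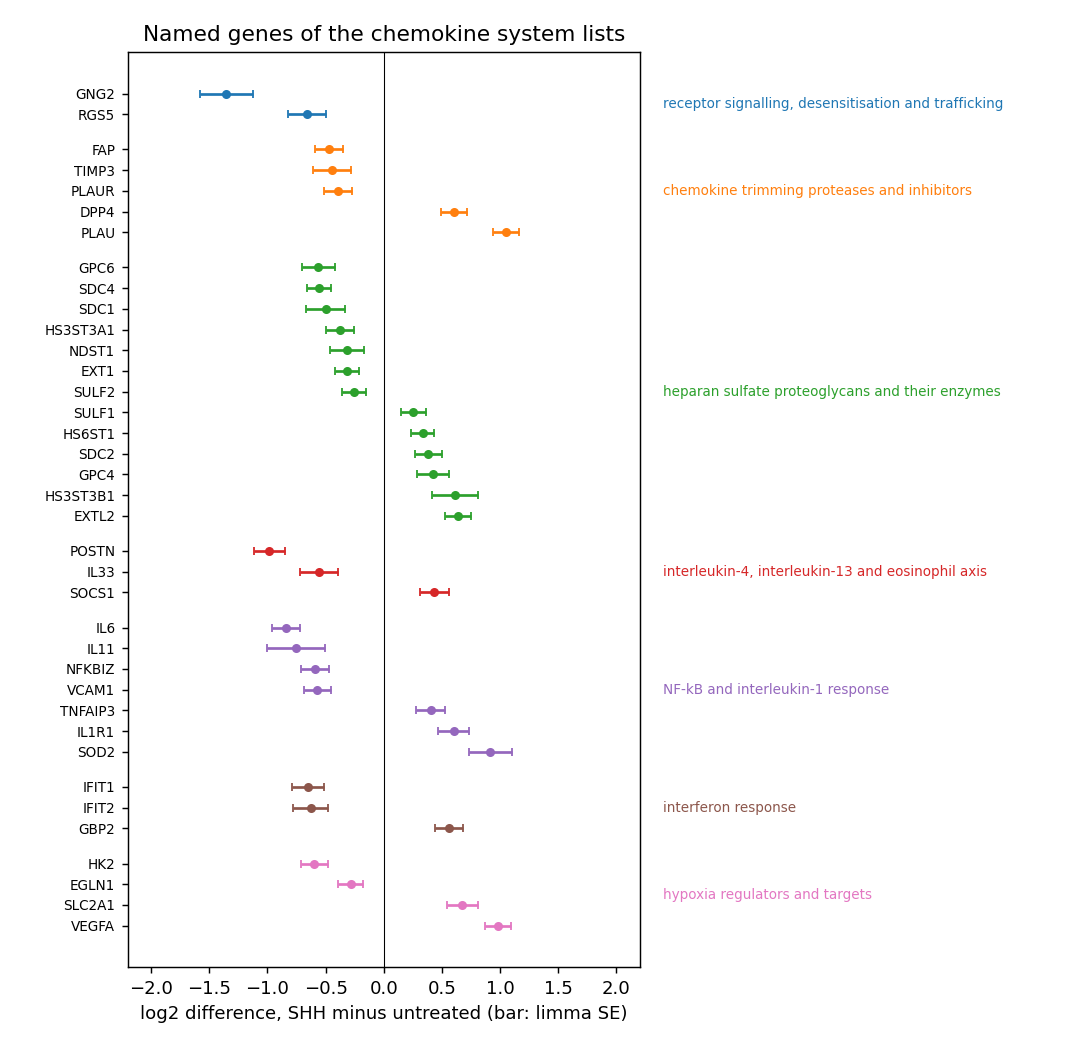
Log2 difference, SHH minus untreated, with limma's SE, of the 37 named genes of the chemokine system lists, coloured by list. Values run from -1.36 for GNG2 to 1.05 for PLAU, and most lists hold genes on both sides of 0.

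An eleventh list held the hedgehog receptor and its targets. It had 7 named genes of 11, of which PTCH1, FOXF2 and FOXL1 rose and GAS1 fell by limma. The untreated signal of FOXL1 was dim (7.05 ± 4.47), so its difference depends on the pseudocount. GLI1, at 2.52 ± 0.38, missed the threshold at 0.110, but passed with the trend at 0.00355 (adjusted p-values). BOC at 0.37 and FOXF1 at 0.31 missed it as well, and with the trend BOC passed at 0.0375 and FOXF1 had 0.0533. With this list, 44 of 217 genes had a name and 4 passed, beside 40 of all 1645 named genes, or 2.43%, and 0.123% of all probe sets. All of these genes were named by their p in this same contrast, so the count is no independent evidence.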

How the data were processed

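Affymetrix arrays of 1 colour, 3 per group, were hybridised with biotin-labelled cRNA, per the labels' protocols; groups and replicate numbers came from the titles. The value table deposited by the authors holds 1 linear intensity per probe set and array. Its 2% trimmed means are nearly equal, so the arrays appear scaled to a common level; how probes were summarised and scaled is not stated here. The authors' deposited table of p at or under 0.05 gives a p-value and q-value, a t statistic (a score) and a log2 fold change from a Cyber-T test, per the deposited readme; it served for naming, and its sign was turned. Of its 2411 probe sets 2152 had 1 symbol, updated through RefSeq of GRCh38.p14.

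Limma 3.58.1 (R 4.3.3; lmFit, eBayes, 2-sided, Benjamini-Hochberg over 54613 probe sets, threshold 0.05) was fitted to log2(intensity + 16), without a filter, and tested on simulated data. Python 3.11.15 did the rest. The brightest named probe set stands for a gene. The text gives all named probe sets of the members, listed genes past the threshold and otherwise up to 3 per list by smallest p. It also gives the 3 genes nearest in profile. The other plotted genes, TIMP3, PLAUR, SDC1, SDC2, GPC4, SULF1, SULF2, EGLN1, DCN and PDGFRB were named after their values were seen. The members and lists were chosen with earlier results of these data known. Other pseudocounts, scalings, a filter, an intensity trend, a replicate block and each array left out were tried. No batch is recorded. All deposited per-sample columns of the value table were used.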

Additional observations from a re-analysis of the deposited data

How the results depend on the processing

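No member changed direction. Averaging the named probe sets gave 3.25 for CXCL14 and -0.91 for CXCL12, a pseudocount of 64 gave -1.48 for CCL11 and 1.45 for CXCR4, and a pseudocount of 1 gave 3.10 for CXCR4. By construction a larger pseudocount draws dim signals together. Leaving out 1 array moved CXCL14 from 3.43 to 3.87, CXCL12 from -1.13 to -1.03, CCL11 from -1.87 to -1.58 and CXCR4 from 1.80 to 2.58. The counts by limma were less stable. The 67 probe sets past the threshold became 0 with a pseudocount of 1 (5009 at an unadjusted p under 0.05), 295 with 64, 34 with arrays centred on their medians, 1014 with an intensity trend, 555 among the 27306 probe sets above the median signal, and 0 without any 1 array (4411 to 5180 unadjusted). Of the 44 named listed genes, hedgehog genes included, the 4 past the threshold became 0, 9, 3, 26, 15 and 0 in the same order, with 40 at an unadjusted p under 0.05 for the first of these and 32 to 37 for the last. With the replicate block limma passed 0 probe sets (4746 unadjusted) and 0 listed genes (36 unadjusted), and the members' differences are the same by construction. Same-numbered arrays did not deviate together (correlations of 0.010, 0.019 and -0.015), and not every array correlated best with its own number. A pairing by number was thus not seen, but correlations this near to 0 cannot exclude it. The cause of these moves in the counts was not tested, except that leaving out an array leaves fewer samples. Genes without a named probe set are not covered.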
